A study of Homo sapiens with 2 samples.

Results

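Interferon-stimulated genes are the genes that cells switch on when interferons reach them, and 45 of them were followed here in embryoid body outgrowths of HUES9, a human embryonic stem cell line. The genes were chosen by name, with earlier results of these data known. Every probe set that the platform annotation gives to 1 of these genes alone was read. Of the 45 genes, 44 had such a probe set, with 70 probe sets in all, among 19775 genes and 54675 probe sets of the array. STAT2 had no probe set named for it alone and is not analysed here. One kind of culture, SB-OG, was grown with SB-431542, which blocks the kinase receptors of TGF-β, activin and nodal. The inhibitor was present at 10 µM while stem cells of passage 32 formed embryoid bodies over 10 days, and at 1 µM while cells grew out of them on fibronectin in a chemically defined medium. The other kind, control-OG, received the solvent DMSO, given as 0.01%, and the labels describe no other difference in handling. At outgrowth passage 5, 3 samples of a condition were mixed and their RNA was read on 1 Affymetrix array. The outgrowths are mixed cultures of a single line, not sorted cells.

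With 1 array per condition, no difference given here can be checked against replicates or carries a p-value, and every count describes this pair of arrays. Both arrays had nearly the same average, so that a change in total RNA per cell would not show. The level taken as background was 27.6 on SB-OG and 32.6 on control-OG, the 95th percentile of 213 probe sets for olfactory receptors and other genes not expected in these cells. A gene is called measured where its brightest probe set, by mean log2 intensity, was above this level on at least 1 array, as 12502 genes were. Each difference is the log2 intensity on SB-OG minus that on control-OG, and values under background were raised to it first. Folds of genes measured on 1 array only are thus lower bounds, written "at least". These bounds hold for the background level chosen here and shrink where it is set higher. Over 4931 genes read by several probe sets, the log2 differences of a gene's probe sets scattered with an SD of 0.46. The ratio of 3′ to 5′ signal of GAPDH, a sign of RNA integrity, was 0.958 on SB-OG and 0.995 on control-OG.

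Type I interferons bind a receptor pair on the cell surface, and the attached Janus kinases activate STAT proteins. Joined by IRF9, these form a complex that binds the interferon-stimulated response element (ISRE) in front of target genes, while interferon-γ acts mainly through a second element, the γ-activated site (GAS). The induced proteins block viral entry, sense foreign RNA, shut down translation and attach the small modifier ISG15 to other proteins. Pluripotent stem cells are known to respond weakly to interferon and to keep some of these genes on without it, and the response grows as cells differentiate.

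The promoters show which letters these genes share. RefSeq promoters of assembly GRCh38.p14 were found for 37 of the 45 genes, and the 250 bases before each annotated start were searched. No promoter was at hand for USP18, IRF7, IFIT2, IFITM2, OAS2, OASL, MX2 and TRIM22, so these were not searched. The ISRE was searched on both strands as TTTC, any 2 bases and TTTC again, so that GAAA, any 2 bases and GAAA on the printed strand also counts. The GAS was searched as TTC, any 3 bases and GAA, which reads the same on both strands. Matches of the 2 motifs may overlap, as at BST2. The ISRE letters stood before 22 of the 37 genes (59.5%), beside 3.71% of all 27305 genes with a promoter. The GAS letters stood before 11 of the 37 (29.7%), beside 8.09% of all genes. The first set holds the ISRE letters, in capitals, before members whose level in SB-OG was at least 2-fold lower. MX1 was also lower and has these letters but is not printed.
BST2, chr19:17405730-17405775, minus strand: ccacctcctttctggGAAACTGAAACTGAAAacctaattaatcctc
ISG15, chr1:1013369-1013414, plus strand: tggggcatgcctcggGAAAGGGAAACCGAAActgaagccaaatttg
IFIT3, chr10:89327826-89327899, plus strand: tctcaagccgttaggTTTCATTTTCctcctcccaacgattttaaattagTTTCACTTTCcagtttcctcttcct
IFIH1, chr2:162318685-162318858, minus strand: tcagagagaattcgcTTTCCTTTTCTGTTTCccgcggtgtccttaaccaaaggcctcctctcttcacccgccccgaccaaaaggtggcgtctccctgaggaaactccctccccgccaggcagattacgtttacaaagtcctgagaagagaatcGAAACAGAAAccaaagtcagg
IFITM3, chr11:320871-320927, minus strand: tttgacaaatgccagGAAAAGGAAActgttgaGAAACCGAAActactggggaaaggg
EPSTI1, chr13:42992267-42992306, minus strand: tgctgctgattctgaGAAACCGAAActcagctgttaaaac
PARP14, chr3:122680795-122680834, plus strand: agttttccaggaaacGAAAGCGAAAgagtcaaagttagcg

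The same letters stood before members that were not 2-fold lower, and some of these are shown for comparison.
IFIT1, chr10:89392492-89392544, plus strand: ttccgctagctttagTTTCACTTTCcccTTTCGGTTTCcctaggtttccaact
IFIT5, chr10:89414508-89414567, plus strand: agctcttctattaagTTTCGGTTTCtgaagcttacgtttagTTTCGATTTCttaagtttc
DDX60, chr4:168318781-168318855, minus strand: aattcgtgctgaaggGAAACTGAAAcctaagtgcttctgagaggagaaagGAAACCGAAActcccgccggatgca
SAMD9, chr7:93118091-93118130, minus strand: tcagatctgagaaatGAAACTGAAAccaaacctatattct
IFI44, chr1:78649756-78649788, plus strand: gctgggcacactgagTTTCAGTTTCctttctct
Of 19 measured members with the ISRE letters, 8 were 2-fold lower in SB-OG or more, 1 was higher and 10 lay within 2-fold, with a median log2 difference of -0.85. Of all 12502 measured genes, 13.0% were at least 2-fold lower and 12.4% higher. Without the letters, 7 of 14 measured members were at least 2-fold lower and none was higher, with a median of -0.92. The letters thus stood before lower, higher and level members. The third set holds the GAS letters, in capitals, before the transcription factor genes IRF9 and IRF1 and before IFI35, the member with the second most negative difference.
IRF9, chr14:24161187-24161225, plus strand: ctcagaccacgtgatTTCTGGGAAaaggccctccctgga
IRF1, chr5:132490874-132490912, minus strand: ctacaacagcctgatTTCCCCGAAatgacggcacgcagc
IFI35, chr17:43006747-43006783, plus strand: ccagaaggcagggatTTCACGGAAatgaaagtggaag
A match is a string of letters in the promoter table and was not tested for binding.

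The members leaned to the lower side in SB-OG, and USP18 stood far apart on the other. Of the 44 members with a probe set, 39 were measured, 31 with a negative difference once values under background were raised to it. OAS3 is among these 31 only through that step, since its deposited values were 28.3 on SB-OG and 23.7 on control-OG. Of the 39, 31 were above background on both arrays, 2 on SB-OG only and 6 on control-OG only. At least 2-fold lower in SB-OG were 18 of the 39, beside 13.0% of all measured genes. At least 2-fold higher were 2 of the 39, beside 12.4% of all measured genes. The other 19 lay within 2-fold. The median log2 difference of the members was -0.87, beside -0.02 for all measured genes, whose quartiles were -0.53 and 0.51. Among the 31 members above background on both arrays, 13 were at least 2-fold lower and 1 was higher, beside 12.3% lower and 10.8% higher of the 10400 such genes, and the members' median was -0.85. Rescaling SB-OG on the hybridisation controls moved all genes up by 0.47. The members' median was then -0.40 beside 0.45 for all measured genes, with 11 of the 39 members at least 2-fold lower, beside 7.27% of all measured genes, and 5 higher, beside 24.1%. In RNA of whole cultures, fewer cells that use a gene and less RNA of it per cell cannot be told apart.

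**Figure D1:**
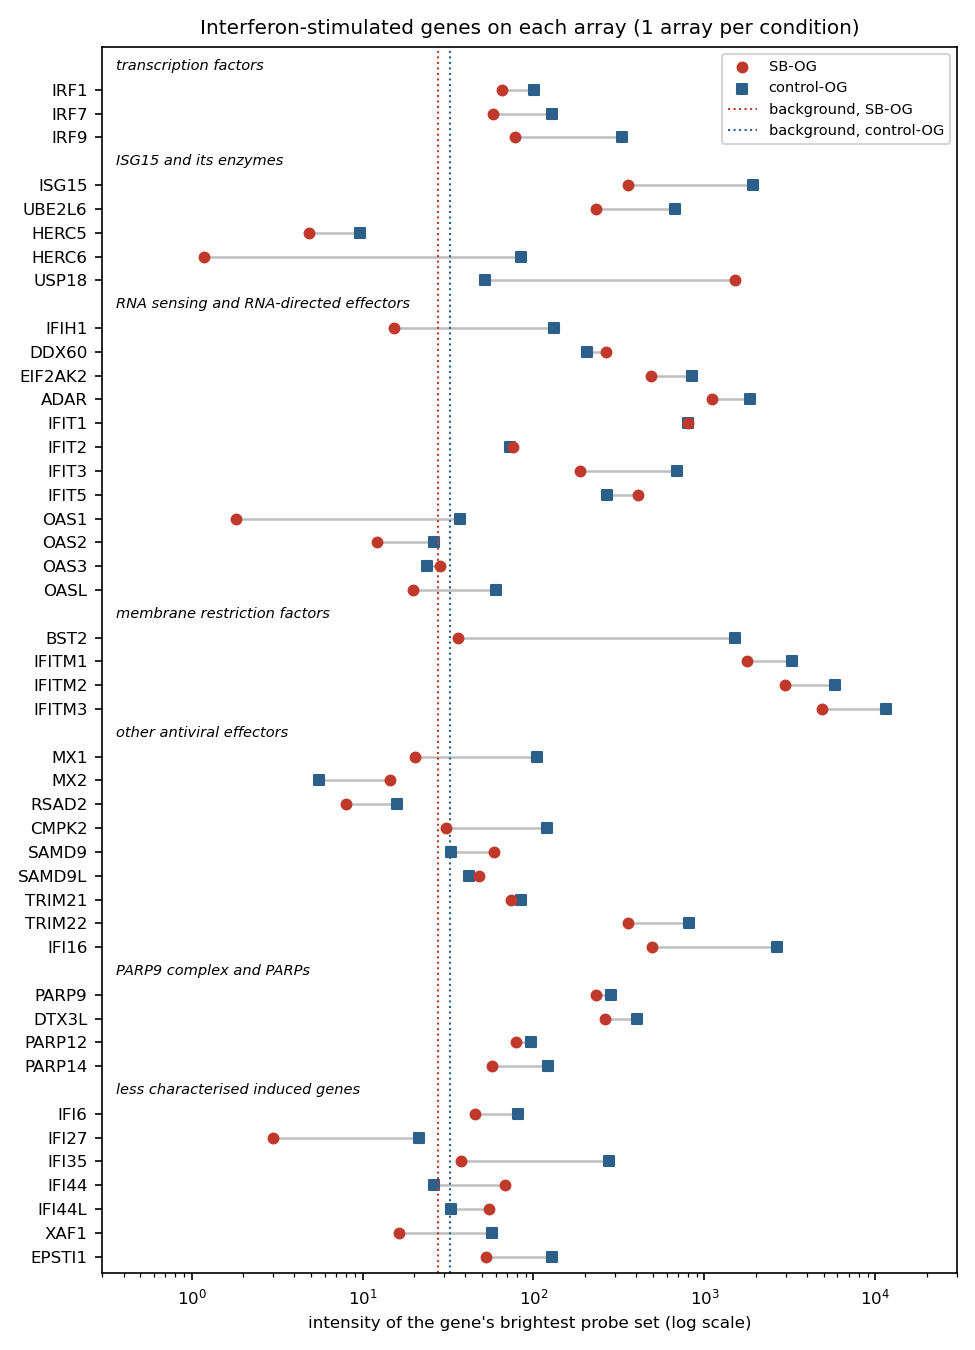
Intensity of the brightest probe set of each of 44 interferon-stimulated genes (log axis) on SB-OG (red circles) and control-OG (blue squares), grouped by role, with 1 array per condition and dotted lines at each array's background. BST2, ISG15, IRF9 and IFI35 lie well to the left on SB-OG, USP18 lies far to the right on SB-OG, and the circles and squares of IFIT1 coincide.

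Among the transcription factors of the response, IRF9 differed most. IRF9, the DNA-binding partner of the STAT complex at the ISRE, had an intensity of 77.7 on SB-OG and 328 on control-OG, a difference of -2.08 (4.23-fold lower). IRF7, which amplifies interferon production in infected cells, was at 57.7 on SB-OG and 128.5 on control-OG, 2.23-fold lower. IRF1, an early factor downstream of interferon-γ, stood at 65.5 on SB-OG and 100.6 on control-OG, 1.54-fold lower, and its other probe set gave -0.42. All 3 were lower in SB-OG in every alternative computed, although IRF7 lost its 2-fold difference in 3 of them.

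ISG15 and the conjugating enzyme gene UBE2L6 were lower in SB-OG, as was HERC6, and the gene for the enzyme that removes ISG15 was higher. ISG15, the ubiquitin-like modifier itself, had an intensity of 355 on SB-OG and 1910.2 on control-OG, 5.37-fold lower. UBE2L6, the conjugating enzyme that hands ISG15 on, was at 233 on SB-OG and 674 on control-OG, 2.89-fold lower. HERC6, the main ISG15 ligase in mouse, was at 1.18 on SB-OG and 84.9 on control-OG, at least 3.08-fold lower. With the background set at the 99th percentile, the difference of HERC6 was -0.14. HERC5, the main ISG15 ligase in human cells, was under background on both arrays. UBA7, the ISG15 activating enzyme, had no probe set named for it alone. The protease gene USP18, whose product removes ISG15 from proteins and also blocks signalling at the type I interferon receptor, was at 1502 on SB-OG and 52.0 on control-OG. This 28.9-fold higher level rests on 1 probe set, and 77 of the 12502 measured genes had a more positive difference. USP18 has near-identical copies on its chromosome, and how much of the signal a copy gave is unknown. Its difference lay between 4.48 and 5.32 in all 9 alternatives.

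USP18 has also been described as acting in the differentiation of cultured human muscle cells, apart from interferon. Skeletal muscle markers moved with it here, as all 10 listed markers were past 2-fold higher in SB-OG, beside 12.4% of all measured genes. The median log2 difference of these markers was 6.61. Their summed intensity was 53169.8 on SB-OG and 404 on control-OG. The part of the muscle markers in the USP18 difference was not tested.

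Sensors of foreign RNA and the proteins that act on it were divided. IFIH1, the MDA5 sensor of long double-stranded RNA, had an intensity of 15.3 on SB-OG and 132.7 on control-OG, at least 4.81-fold lower. Its 2 other probe sets were under background on both arrays. With the background set at the 99th percentile, the difference of IFIH1 was -0.78. EIF2AK2, the kinase PKR that stops translation when it binds double-stranded RNA, was at 489 on SB-OG and 846 on control-OG, 1.73-fold lower. A dim probe set for it gave 0.17 and another -0.67. ADAR, which edits double-stranded RNA, was at 1107 on SB-OG and 1857 on control-OG, 1.68-fold lower. DDX60, a helicase described as a partner of RNA sensors, was at 267 on SB-OG and 205.6 on control-OG, 1.30-fold higher. The differences of EIF2AK2, ADAR and DDX60 were all under 2-fold, with an SD of 0.46 between probe sets of a gene.

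The IFIT genes, whose proteins bind viral RNA and translation factors, lie next to each other on chromosome 10 in the order IFIT2, IFIT3, IFIT1, IFIT5, with IFIT1B among them. Their differences ran from -1.90 to 0.59, so that neighbours did not move as a block. IFIT3 was at 185.9 on SB-OG and 693 on control-OG, 3.73-fold lower, and its other probe set gave -1.76. IFIT1 was at 800.1 on SB-OG and 802 on control-OG, a difference of -0.0031, and its sign turned under 4 of the scaling alternatives. IFIT2 was at 75.8 on SB-OG and 72.8 on control-OG. IFIT5 was at 408 on SB-OG and 270.3 on control-OG by its brightest probe set, and at 222 on SB-OG and 307 on control-OG by its other, so its direction is not settled. IFIT3 was thus lower and IFIT1 level, and both carry the ISRE letters printed above.

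The enzymes of OAS1, OAS2 and OAS3 make the 2′-5′ oligoadenylates that activate an RNA-degrading enzyme. OASL was grouped with them here by name, and all of these genes were under or near background on both arrays. OAS1 was at 1.83 on SB-OG and 37.2 on control-OG, at least 1.35-fold lower. OASL was at 19.7 on SB-OG and 60.5 on control-OG, at least 2.19-fold lower, while its other probe set had 35.8 on SB-OG and 23.0 on control-OG. OASL is among the 18 lower members, yet its direction turned when that second probe set stood for it. OAS3 was at 28.3 on SB-OG, just above background there, and at 23.7 on control-OG, under it, so no fold is given. OAS2 was under background on both arrays by all its probe sets.

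The restriction factors of the cell membrane were lower in SB-OG for all 4 genes, and BST2 was the member with the most negative difference. BST2, or tetherin, holds budding virus particles on the cell surface. It had an intensity of 36.0 on SB-OG and 1503 on control-OG, 41.8-fold lower, and 18 of the 12502 measured genes had a more negative difference. IFITM1, IFITM2 and IFITM3 keep viruses from fusing with cell membranes, and the 3 genes are neighbours on chromosome 11. IFITM3 was at 4892 on SB-OG and 11497 on control-OG, 2.35-fold lower. IFITM2 was at 2969 on SB-OG and 5791 on control-OG, 1.95-fold lower. IFITM1 was at 1775 on SB-OG and 3252 on control-OG, 1.83-fold lower. The 3 differences lay between -1.23 and -0.87, and unlike the IFIT neighbours they had the same sign. These genes are near-identical in long stretches, and how much of each signal a relative gave is unknown. With SB-OG rescaled on the hybridisation controls, IFITM3 was at -0.76 and no longer 2-fold lower, while BST2 remained at -4.91. The SB-OG value of BST2 lies near background, and with the background set at the 99th percentile its difference was -4.28.

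**Figure D2:**
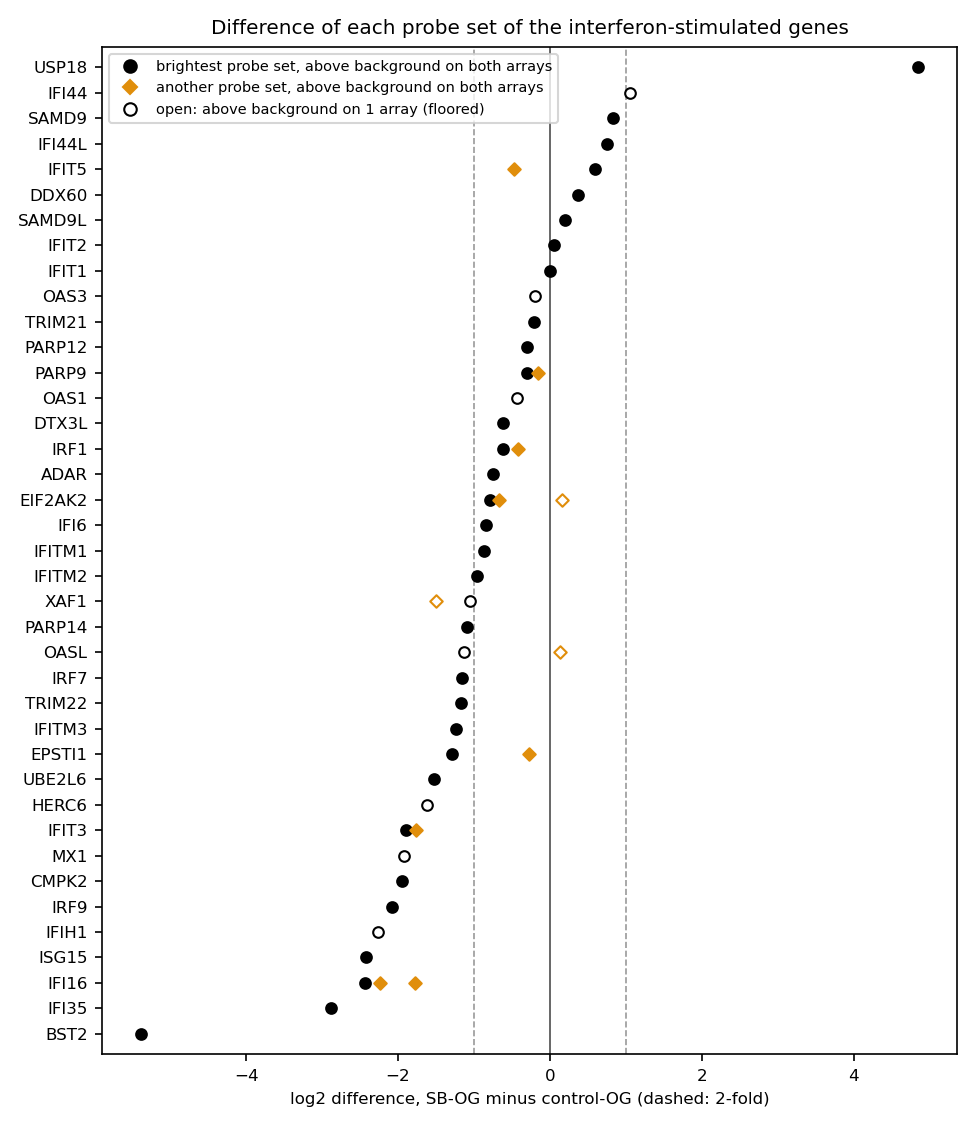
Log2 difference, SB-OG minus control-OG, of each probe set of the 39 measured interferon-stimulated genes, ordered by the brightest probe set (black circles), with other probe sets as orange diamonds. Open symbols were above background on 1 array only, and dashed lines mark 2-fold. BST2 at -5.38 and USP18 at 4.85 stand apart from the other 37 members, which lie between -2.88 and 1.06.

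Of the other antiviral effectors, 4 of 7 measured genes reached a 2-fold lower level in SB-OG, beside 13.0% of all measured genes. None reached a 2-fold higher level, beside 12.4%. IFI16, a nuclear sensor of foreign DNA, had an intensity of 492 on SB-OG and 2659.6 on control-OG, 5.40-fold lower, and its other probe sets gave -2.24 and -1.78. MX1, a GTPase that traps viral nucleocapsids, was at 20.3 on SB-OG and 104.7 on control-OG, at least 3.79-fold lower. Its neighbour MX2, which acts against retroviruses, was under background on both arrays. CMPK2, a mitochondrial nucleotide kinase, was at 30.9 on SB-OG, just above background, and at 119.8 on control-OG, 3.87-fold lower. With the background set at the 99th percentile, the difference of MX1 was -0.44 and that of CMPK2 -0.63. RSAD2, the neighbour of CMPK2 and the source of the antiviral protein viperin, was under background on both arrays. TRIM22, a ubiquitin ligase that restricts several viruses, was at 358 on SB-OG and 809.7 on control-OG, 2.26-fold lower. TRIM21, the intracellular antibody receptor, was at 73.5 on SB-OG and 84.9 on control-OG.

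SAMD9 and SAMD9L, neighbours on chromosome 7 that restrict poxviruses and slow cell growth, were among the 8 members with a positive difference, without reaching 2-fold. SAMD9 was at 58.9 on SB-OG and 33.1 on control-OG, the second of these just above background. With the mean of all probe sets, its difference was 0.18. SAMD9L was at 48.2 on SB-OG and 42.0 on control-OG, a difference of 0.20, under the SD of 0.46 between probe sets of a gene. The pair IFI44L and IFI44 on chromosome 1 was also higher in SB-OG. IFI44L was at 55.2 on SB-OG and 32.7 on control-OG, 1.69-fold higher. IFI44 was at 67.9 on SB-OG and 26.1 on control-OG, at least 2.08-fold higher, and fell short of 2-fold in 3 of its 7 alternatives. On control-OG, all 4 were at or near background.

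PARP9 and its partner DTX3L form a complex that modifies chromatin and proteins with ADP-ribose and ubiquitin. Their genes and PARP14 lie close together on chromosome 3. PARP14, a regulator of macrophage signalling, was at 56.9 on SB-OG and 121 on control-OG, 2.13-fold lower. DTX3L was at 263 on SB-OG and 402 on control-OG, 1.53-fold lower. PARP9 was at 231 on SB-OG and 286 on control-OG, a difference of -0.30, and its other probe set gave -0.15. PARP12, which acts against viral translation, was at 78.5 on SB-OG and 96.8 on control-OG. The signs of PARP9 and PARP12 turned when SB-OG was rescaled on the hybridisation controls.

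IFI35, a protein that is released as a danger signal and also acts on innate signalling, was at 37.6 on SB-OG and 276 on control-OG, 7.34-fold lower. The SB-OG value of IFI35 lies near background, and with the background set at the 99th percentile its difference was -1.84. EPSTI1, first described as a stromal response gene, was at 52.6 on SB-OG and 128.9 on control-OG, 2.45-fold lower, with its other probe set at -0.28. XAF1, a promoter of apoptosis, was at 16.5 on SB-OG and 57.0 on control-OG, at least 2.06-fold lower. A second probe set for XAF1 had 2.40 on SB-OG and 78.0 on control-OG. IFI6, a mitochondrial and reticulum protein that protects cells from viral death, was at 45.2 on SB-OG and 81.3 on control-OG, 1.80-fold lower. IFI27 was under background on both arrays, at 2.98 on SB-OG and 21.3 on control-OG. With HERC5, OAS2, MX2 and RSAD2 it completes the 5 members that were not measured.

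Probe sets of the same member mostly pointed the same way. Of 9 members with 2 or more measured probe sets, 3 had probe sets of opposite sign, and these were EIF2AK2, IFIT5 and OASL. Over all 50 measured probe sets of the members, 22 were past 2-fold lower in SB-OG and 2 past 2-fold higher. The shares over all probe sets of the array were not computed. Counted by gene, 13.0% of all measured genes were at least 2-fold lower and 12.4% higher. Of the 20 members that were 2-fold apart, 8 remained so in every alternative that gave them a value. These were BST2, IFI35, IFI16, ISG15, IRF9, IFIT3 and UBE2L6 on the lower side and USP18 on the higher side.

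Interferon-responsive genes outside the members showed the same side. The list of 60 such genes was chosen with earlier results of these data known, so it is no independent check of the members. In it, 55 genes had a probe set of their own and 41 were measured. At least 2-fold lower in SB-OG were 26 of the 41, beside 13.0% of all measured genes, and none was 2-fold higher, beside 12.4%. Their median log2 difference was -1.15, and 37 of the 41 differences were negative. GBP3, a guanylate-binding protein, had an intensity of 54.5 on SB-OG and 581 on control-OG, 10.7-fold lower. MLKL, the executor of necroptosis, was at 5.49 on SB-OG and 157 on control-OG, at least 5.69-fold lower. TAP1, which carries peptides to MHC class I molecules, was at 82.9 on SB-OG and 397 on control-OG, 4.78-fold lower. LGALS3BP, a secreted glycoprotein, was at 803 on SB-OG and 3811 on control-OG, 4.75-fold lower. TRIM25, the ligase that activates RIG-I, was at 152 on SB-OG and 679 on control-OG, 4.45-fold lower, with a second probe set at -0.40. SHFL, an inhibitor of viral frameshifting, was at 66.8 on SB-OG and 286 on control-OG, 4.28-fold lower, and its other probe sets gave -1.82 and -0.76. The chemokine genes CXCL9, CXCL10 and CXCL11, strongly induced by interferon-γ, were under background on both arrays.

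**Figure D3:**
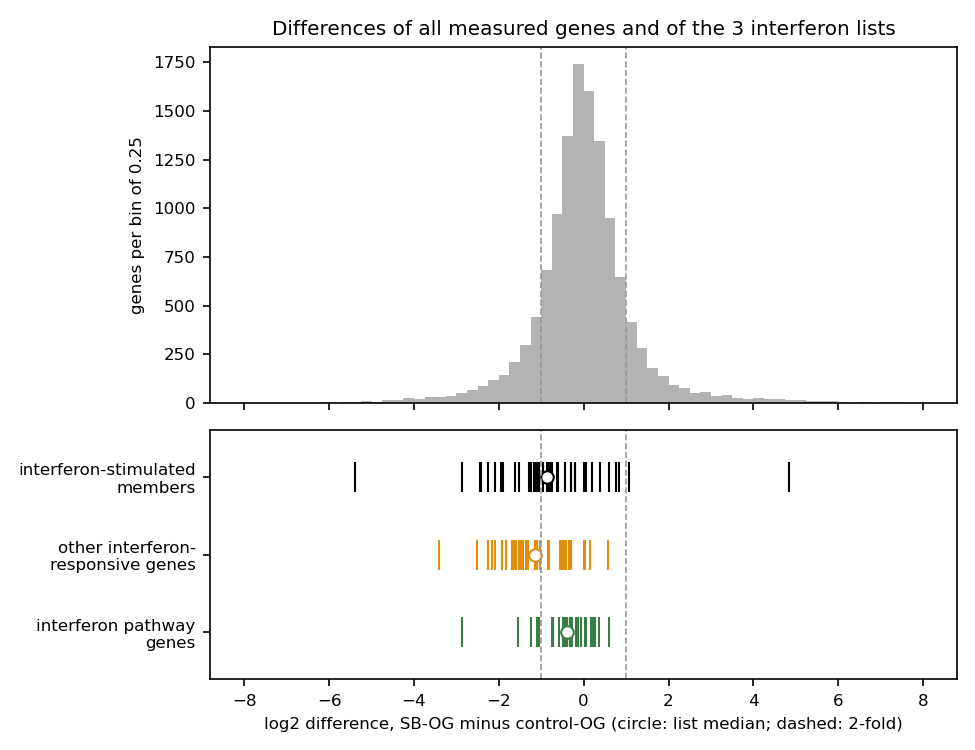
Distribution of log2 differences, SB-OG minus control-OG, of 12502 measured genes in bins of 0.25 (upper panel, values beyond 8 placed in the outer bins) above ticks for each measured gene of the 3 interferon lists (lower panel, circles at the medians). The median of the members is -0.87 and that of the other interferon-responsive genes -1.15, whereas the pathway genes centre on -0.39.

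The interferons themselves and the machinery that carries their signal showed smaller differences. A list of 51 ligands, receptors, kinases, sensors and regulators held 46 genes with a probe set, of which 31 were measured. At least 2-fold lower in SB-OG were 5 of the 31 (16.1%), a share near the 13.0% of all measured genes, while 0 were 2-fold higher, beside 12.4%. The median of the 31 was -0.39. Of 8 interferon genes, 7 were under background on both arrays, IFNB1 among them at 1.25 on SB-OG and 21.3 on control-OG. IFNL1 was at 1.77 on SB-OG and 36.4 on control-OG, where it was just above background.

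Of 6 receptor genes, 5 were above background on both arrays, and IFNLR1, a chain of the interferon-λ receptor, was under it on both. IFNAR1, a chain of the type I receptor, was at 133.8 on SB-OG and 222 on control-OG, 1.66-fold lower, and its other measured probe sets gave -0.83 and -0.41. IFNAR2, the other chain, was at 135.7 on SB-OG and 184 on control-OG by its brightest probe set, with a difference of -0.44. Its other probe sets gave 0.64 and 1.71, so the direction of IFNAR2 is not settled. IFNGR2, a chain of the interferon-γ receptor, was at 261 on SB-OG and 562 on control-OG, 2.15-fold lower. The Janus kinase gene JAK1 was at 1623 on SB-OG and 1576 on control-OG, with other probe sets at -0.23 and 0.03. By their brightest probe sets, the 4 measured kinase and STAT genes had log2 differences between -0.18 and 0.17. A second measured probe set for JAK2, another of these kinases, was at 88.8 on SB-OG and 43.8 on control-OG, a difference of 1.02, past 2-fold higher.

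The other 4 genes of the pathway at least 2-fold lower were sensors, adaptors and a feedback inhibitor. SOCS3, which shuts off JAK signalling mainly of the interleukin-6 family, was at 148 on SB-OG and 1088 on control-OG, 7.33-fold lower, and its other measured probe sets gave -1.14 and -0.70. IKBKE, an inducible kinase that activates interferon regulatory factors, was at 39.5 on SB-OG and 115 on control-OG, 2.91-fold lower, with another probe set at -1.39. TLR3, the endosomal receptor for double-stranded RNA, was at 34.3 on SB-OG and 80.7 on control-OG, 2.35-fold lower, and another probe set, under background on SB-OG, had 8.29 on SB-OG and 107.2 on control-OG, at least 3.89-fold lower. TICAM1, the adaptor of TLR3, was at 51.5 on SB-OG and 106.8 on control-OG, 2.07-fold lower. The calls of IFNGR2 and TICAM1, each read by 1 probe set, lie close to the 2-fold limit.

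**Figure D4:**
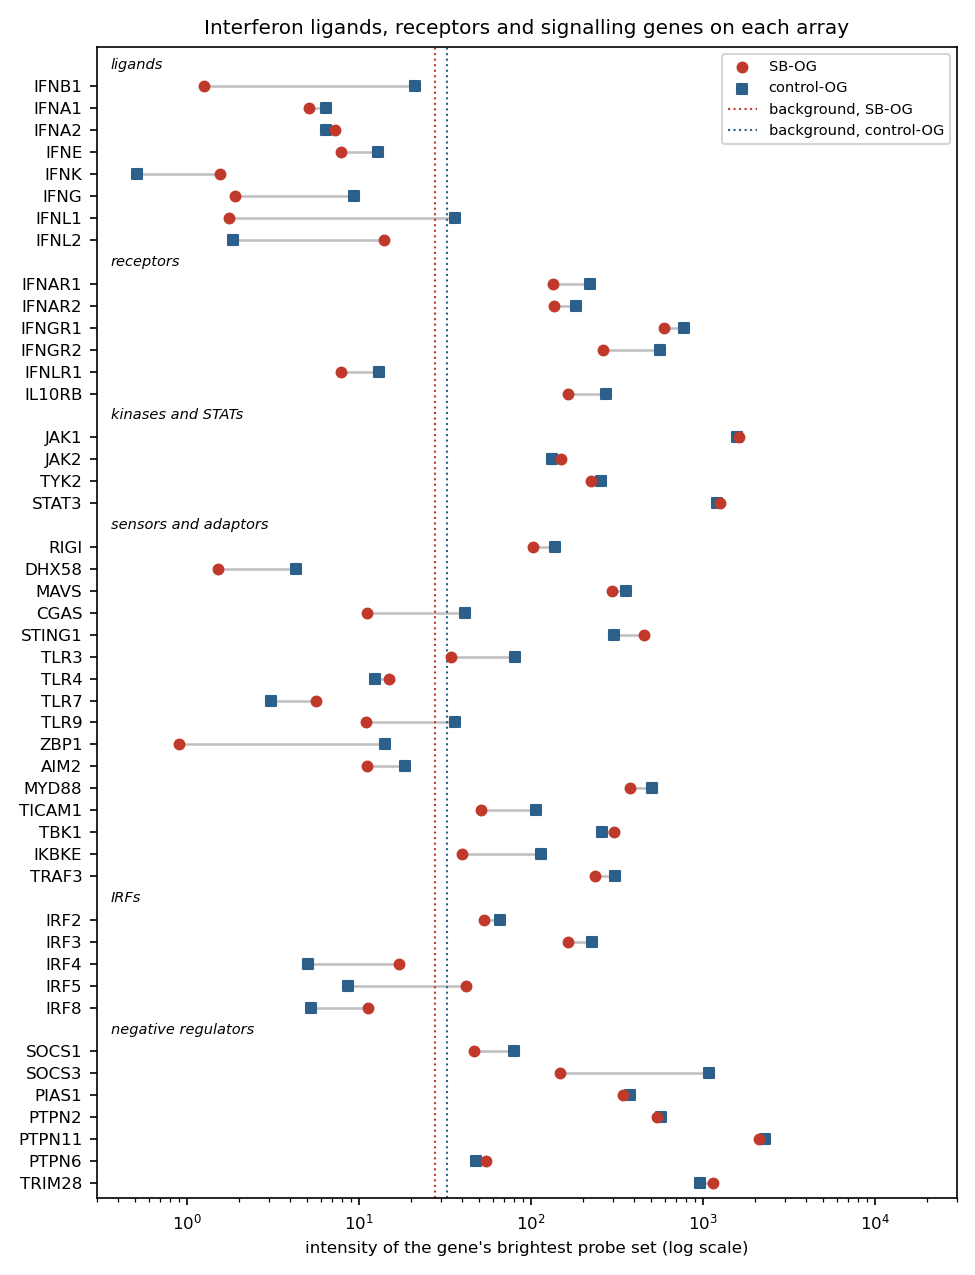
Intensity of the brightest probe set of interferon ligands, receptors, kinases, sensors, regulatory factors and negative regulators (log axis) on SB-OG (red circles) and control-OG (blue squares), with dotted lines at each array's background. Of 8 ligands, 7 lie left of both lines, the kinases nearly coincide, and SOCS3 has the widest gap among genes above background on both arrays.

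Marker genes of other cell types moved between the same arrays. Of 8 leukocyte markers with a probe set, 7 were under background on both arrays, including PTPRC, the pan-leukocyte antigen, and the exception CD14 was at 1.79 on SB-OG and 215.5 on control-OG. The summed intensity of all 8 was 75.3 on SB-OG and 345 on control-OG, and CD14 alone made up 215.5 of the control-OG sum. CLEC4C and LILRA4, which define plasmacytoid dendritic cells, the main makers of type I interferon in blood, were under background on both arrays. TCF4, a factor of these cells that many other cell types also use, was at 1535 on SB-OG and 673 on control-OG, 2.28-fold higher. Epithelial markers were at least 2-fold lower for 5 of 6 measured genes, with a summed intensity over 10 genes of 568 on SB-OG and 18112 on control-OG. These 5 were KRT8, KRT18, KRT19, DSG2 and DSP. The exception CDH1 was at 82.8 on SB-OG and 26.9 on control-OG, at least 2.54-fold higher. EPCAM, CLDN3, CLDN4 and GRHL2 were under background on both arrays. Endothelial markers were at least 2-fold lower for 3 of 4 measured genes, with a sum over 8 genes of 154 on SB-OG and 2094 on control-OG. These 3 were TEK, KDR and FLT1. PECAM1 lay within 2-fold, and CDH5, VWF, TIE1 and ERG were under background on both arrays. Fibroblast and stromal markers were at least 2-fold lower for 8 of 10, with a sum of 47752 on SB-OG and 105587 on control-OG. COL3A1 lay within 2-fold, and PDGFRB was at 656 on SB-OG and 317 on control-OG, 2.07-fold higher. Of 6 markers of pluripotent cells, 5 were under background on both arrays, namely NANOG, LIN28A, DPPA4, ZFP42 and PRDM14. The exception SOX2 was at 147.2 on SB-OG and 14.2 on control-OG, at least 4.52-fold higher. Of all measured genes, 13.0% were at least 2-fold lower and 12.4% higher. The parts of the epithelial, endothelial, stromal and pluripotent cell markers in the differences of the interferon-stimulated genes were not tested.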

How the data were processed

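RNA of each mixture was labelled with biotin and read on 1 array, per the labels. The deposited numbers are intensity values on a linear scale, 1 per probe set, made by software not given in the sources used here. With 2% trimmed at each end, both arrays averaged 149.98, so the authors appear to have scaled them to one level. The number of arrays limits the precision. Names of probe sets came from the platform annotation, with symbols updated by gene ID through RefSeq's table of GRCh38.p14, and only those with 1 gene were used. Each gene was read by its brightest probe set, ranked by the mean of its 2 log2 intensities.

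Members, lists and roles were chosen with earlier results of these data known. All measured members are named; from the other lists, up to 6 genes a direction that were furthest apart and past 2-fold, and 5 fixed pathway genes; further names were chosen after their values were seen. No test was run, as n = 1 per condition. The counting was tested on simulated data, in which only genes well above background were changed, so it does not cover calls near background. The alternatives were quantile, lowess (span 0.4) and median scaling, the mean of all or only name-specific probe sets, no floor, a 99th percentile background, a pseudocount of 16 and 3-fold, with scaling on 18 hybridisation control probe sets added after seeing the data. Python 3.11.15, numpy 2.4.6, pandas 2.3.3 and statsmodels 0.14.6 were used.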

Additional observations from a re-analysis of the deposited data

How the results depend on the processing

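No paired analysis was possible because each condition has 1 array, and leaving out a replicate was not possible for the same reason. The 18 of 39 members at least 2-fold lower in SB-OG became 11 of 26 measured with probe sets specific by name. They became 9 of 33 measured with the 99th percentile background, 10 at 3-fold and 11 with hybridisation control scaling. The 2 higher members became 1 with quantile normalization, the mean of all probe sets, specific probe sets, the 99th percentile background, the pseudocount or 3-fold, and 5 with hybridisation control scaling, where 24.1% of all measured genes were higher and the members' median was -0.40. The 26 other interferon-responsive genes lower, of 41 measured, became 17 of 36 with the mean of all probe sets and 16 of 26 with specific probe sets. They became 14 at 3-fold and 16 with hybridisation control scaling, where 1 was higher and the median was -0.68. The 5 pathway genes lower, of 31 measured, became 8 without a floor and 2 of 26 measured with the 99th percentile background. They became 1 at 3-fold and 2 with hybridisation control scaling. Their count of higher genes, 0 as deposited, was 1 with the mean of all probe sets, no floor, the pseudocount or hybridisation control scaling, and 2 with specific probe sets. OASL turned to 0.13 with specific probe sets and to 0.35 with the 99th percentile background, which is higher on SB-OG (77.2) than on control-OG (52.2), and under that background XAF1 turned to 0.44. The shares of all measured genes at least 2-fold lower ranged from 7.27% with hybridisation control scaling to 15.9% without a floor, and that of 3-fold was 6.36%. The cause of the shift in those controls was not tested. Members near background are limited by signal, since their folds are bounds.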

Other observations

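Genes of the PML nuclear body, a structure known to grow under interferon, were read by many probe sets each, and were singled out after their values were seen. Of 9 measured probe sets for PML, 8 reached a 2-fold lower level in SB-OG, and all 9 differences were negative, from -2.23 to -0.88. All 3 measured probe sets for SP100 were at least 2-fold lower, from -1.73 to -1.44. So were all 4 for SP110, from -1.93 to -1.32. Counted by gene, 13.0% of all measured genes were at least 2-fold lower, and the share over all probe sets was not computed.

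Probe sets that the annotation gives to several genes stayed out of the values above. One shared by IFITM2 and IFITM1 was at 1918 on SB-OG and 3283 on control-OG, 1.71-fold lower. Another, shared by RNF31 and IRF9, was at 79.2 on SB-OG and 87.3 on control-OG, 1.10-fold lower.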
